A study of Homo sapiens with 18 samples.

Results

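The response of hTERT RPE-1 cells to a hsa-miR-28-5p mimic was described across all genes, by setting the 3 libraries with the mimic against the 3 with siNT. These 6 libraries were chosen by their labels from the 18 of the whole study. hTERT RPE-1 is a human retinal pigment epithelial line made to divide without limit by telomerase, and all libraries come from this 1 line. The hsa-miR-28-5p group received the microRNA mimic and the siNT group a non-targeting siRNA, each at 30 nM for 72 h, so the controls carry a small RNA too but no mimic of an unrelated microRNA. PolyA+ RNAseq was conducted on biological replicates numbered 1, 2 and 3 in each group. A further 3 hTERT RPE-1 libraries with the hsa-miR-708-5p mimic, which has the same seed, and 6 libraries of siNT and hsa-miR-28-5p in MCF10A breast epithelial cells were used for comparison.

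MicroRNAs guide Argonaute proteins to messenger RNAs, mostly through the seed, which pairs with short matches in the 3′ UTR, and paired transcripts are translated less and decay sooner. A small ribosomal subunit cannot mature without its proteins, RPS28 among them, and loss of one protein stalls the processing of the precursor of 18S rRNA. Stalled ribosome assembly frees ribosomal proteins that restrain MDM2, which lets p53 accumulate. Double-stranded RNA in the cytoplasm is sensed by RIG-I and MDA5, which switch on interferon and the antiviral genes that follow it.

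The libraries held an estimated 23.8–40.4 M reads on genes, and 3 reads corresponded to a value of 2.35 to 4.4. A value is an estimated read count scaled to its library. Libraries differed within groups. In hsa-miR-28-5p replicate 1, ribosomal RNA took 15.1% of the total, compared with 4.23–7.20% in the other 8 libraries of the line. The summed value of small nuclear and nucleolar RNA genes was 22417 in that library and 399–614 in the others. These RNAs carry no polyA tail as a rule. In the same library 38 genes lay at least 2-fold above all other libraries of the line, while siNT replicates 2 and 3 had 34 and 39 genes at least 2-fold below all others. Each list described here was also counted without hsa-miR-28-5p replicate 1. Of the 18 markers of differentiated retinal pigment epithelium, 10 were listed. RPE65, TYR and TTR were not among them, while the regulators MITF (1936, 1757 and 2031 with siNT) and OTX2 (879, 983 and 991) were well above the level of 3 reads. Among mesenchymal markers, FN1 had values of 1225860, 1729290 and 1068990 with siNT. The epithelial markers CDH1 and EPCAM were not listed, while KRT8 lay between 14031 and 15598 with siNT. Of 8 blood cell markers, PTPRC alone was listed, at 5.87–9.12. siNT replicate 3 had values of 561 for TYRP1 and 544 for PMEL, genes of pigment formation, compared with at most 6.08 and 13.8 in the other siNT libraries.

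The mature sequence of hsa-miR-708-5p (RefSeq, GRCh38.p14, chr11:79402077-79402099, minus strand) shows the seed, bases 2 to 8 in capitals, which hsa-miR-28-5p shares.
hsa-miR-708-5p: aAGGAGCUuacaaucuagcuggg
The match to this seed in a transcript is AGCTCCT, called 7mer-m8. It becomes an 8mer when an A follows (AGCTCCTA). GCTCCTA without the first base is a 7mer-A1, and GCTCCT alone a 6mer. The windows that follow are from the last exon of 7 of the transcripts that fell most (hg38, GENCODE 44, transcript strand, match in capitals). They are shown because the largest losses carried them, and further 6mers or a 7mer-A1 in the same 3′ UTRs are left out.
RPS28 first 6mer, chr19:8322318-8322341, plus strand: tcacagtctGCTCCTtttttttgt
RPS28 second 6mer, chr19:8322353-8322376, plus strand: aactgagatGCTCCTttaaataaa
CEMIP first 7mer-m8, chr15:80950071-80950095, plus strand: acagaagtgAGCTCCTgccttaggg
CEMIP second 7mer-m8, chr15:80950749-80950773, plus strand: agcccaaagAGCTCCTgtaagaggg
IMPDH1 first 7mer-m8, chr7:128392881-128392905, minus strand: gggttctccAGCTCCTttccaggca
IMPDH1 second 7mer-m8, chr7:128392549-128392573, minus strand: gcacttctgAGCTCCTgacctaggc
SEMA7A 7mer-m8, chr15:74410526-74410550, minus strand: tggcccgggAGCTCCTtgcctgcca
WSB2 7mer-m8, chr12:118033187-118033211, minus strand: aacaaaaatAGCTCCTtaaaagtac
CNTNAP1 7mer-m8, chr17:42698929-42698953, plus strand: accaattccAGCTCCTgacattccc
EPDR1 7mer-m8, chr7:37951486-37951510, plus strand: ttggctgtgAGCTCCTtgggtacgg
The 2 matches of RPS28 lie 72 and 107 bases into its longest annotated 3′ UTR. Which of the annotated 3′ UTRs these cells use was not tested.

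With hsa-miR-28-5p, 6798 of the 14527 genes tested (46.8%) were called (limma with Benjamini-Hochberg adjustment, adjusted p below 0.05). Of these, 3391 were higher (23.3% of those tested) and 3407 lower (23.5%) than with siNT. A change of at least 2-fold was found for 1021 of the higher genes and 955 of the lower genes. At least 8-fold changes were found for 62 higher and 23 lower genes. All 3 mimic libraries lay above all 3 siNT libraries for 3908 genes (26.9%) and below them for 3993 (27.5%). The split into higher and lower depended on the scaling. With equal library totals, 59.4% of the called genes were higher, compared with 49.9%, and the median over all genes moved from 0.01 to 0.09 on the log2 scale. Without hsa-miR-28-5p replicate 1, 6561 of 14481 genes were called (45.3%), and 6023 were called in both fits, none in the opposite direction.

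RPS28, a protein of the head of the small ribosomal subunit, fell most among the genes with a mean value of at least 100. Its values were 3465, 3301 and 2892 with siNT and 132, 184 and 123 with hsa-miR-28-5p. The groups did not overlap, and the lowest siNT library was far above every mimic library. The mean with the mimic was 4.55% of that with siNT, a log2 fold change of -4.47 (standard error 0.18, limma adjusted p = 1.7e-07). An exact two-sided permutation test gave p = 0.1, which is the smallest that 3 against 3 libraries allow. Leaving out any 1 of the libraries gave -4.64 to -4.35.

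The next genes to fall were of varied function. CEMIP, which degrades hyaluronan, had values of 56704, 60063 and 68400 with siNT and 3923, 1496 and 3825 with the mimic (log2 fold change -4.45, standard error 0.30). NACAD, a relative of the nascent polypeptide associated complex, had values of 449, 584 and 430 and then 16.4, 26.2 and 23.3 (log2 fold change -4.42, standard error 0.27). IMPDH1, an enzyme of guanine nucleotide synthesis, had values of 1248, 1279 and 1083 and then 66.8, 63.9 and 48.9 (log2 fold change -4.32, standard error 0.20). These 3 genes kept 4.50–4.99% of their siNT means, about as little as RPS28. The 15 genes that fell most were picked among genes whose groups did not overlap.
SEMA7A, a membrane-anchored semaphorin, fell from 10034, 11620 and 16248 to 633, 1070 and 848. WSB2, a substrate receptor of a ubiquitin ligase, fell from 6150, 6149 and 5912 to 529, 765 and 553. CNTNAP1, which organises axon–glia junctions in nerve, fell from 1799, 1872 and 1777 to 152, 187 and 217. Their log2 fold changes were -3.89, -3.32 and -3.30, and no mimic library came near a siNT library. The other genes among the 15 that fell most were ELN, REEP2, LRRC32, EPDR1, EXTL1, HSPB7, TMEM130 and MFSD10, with log2 fold changes of -3.71 to -3.13. ELN, which encodes elastin, varied most, with values of 239, 312 and 69.0 with siNT and 10.9, 58.1 and 2.33 with the mimic (standard error 0.97).

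**Figure D1:**
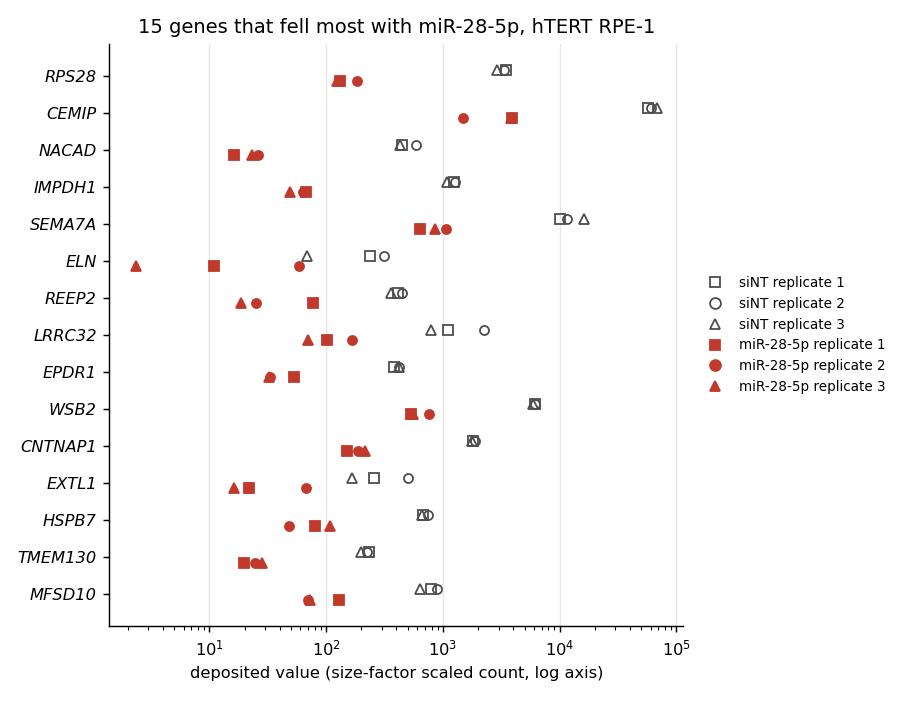
Values of the 15 genes that fell most with hsa-miR-28-5p in hTERT RPE-1, 1 point per library on a logarithmic axis, with siNT as open grey symbols and the mimic as filled red symbols. The genes were picked among those whose siNT and mimic values do not overlap, and RPS28 goes from 2892–3465 to 123–184.

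Of these 15 genes, 10 had a seed match in the 3′ UTR, and 8 a match of at least 7 bases. Among all 12723 tested genes with an annotated 3′ UTR (87.6% of those tested), 38.2% had a match and 20.3% one of at least 7 bases. RPS28 and ELN had 6mers only. REEP2 had a 7mer-A1, and CEMIP, IMPDH1, SEMA7A, EPDR1, WSB2, CNTNAP1 and MFSD10 had a 7mer-m8, as printed above for 6 of them. The other 5 genes, NACAD, LRRC32, EXTL1, HSPB7 and TMEM130, had no match in the 3′ UTR, and all but HSPB7 had one in the coding sequence.

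Across the transcriptome, log2 fold changes were lowest for genes with an 8mer and highest for genes with no match. The median was -0.22 for the 349 genes with an 8mer, -0.15 for 1790 genes with a 7mer-m8, -0.09 for 441 with a 7mer-A1, -0.08 for 2280 with a 6mer and 0.06 for 7863 with none. The share called lower was 41.5% with an 8mer, 36.4% with a 7mer-m8, 34.5% with a 7mer-A1, 29.3% with a 6mer and 19.8% with none, compared with 25% of all matched genes. The share called higher went the other way, from 16.0% with an 8mer to 27.1% with none. The 3 mimic replicates gave similar medians for the 8mer genes (-0.24, -0.18 and -0.23) and for the 7mer-m8 genes (-0.15 in each), including the replicate rich in ribosomal RNA. With equal library totals all classes moved up, to -0.13 for 8mers, -0.06 for the 7mer-m8, -0.01 for the 7mer-A1, 0.00 for 6mers and 0.15 for no match, and their order stayed. The 7mer-A1 and 6mer classes were not separated. Without siNT replicate 1 their medians were -0.068 and -0.072, without siNT replicate 3 -0.089 and -0.092, and without hsa-miR-28-5p replicate 3 -0.085 and -0.092, the reverse of the order with all libraries. These classes are described without a test.

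**Figure D2:**
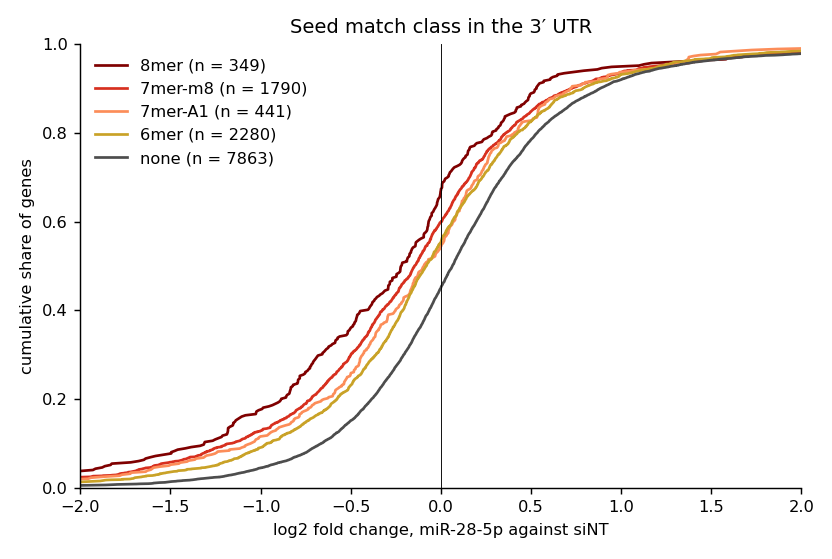
Cumulative share of genes (vertical axis) at or below each log2 fold change between the mimic and siNT (horizontal axis), for 5 classes of seed match in the 3′ UTR. The 8mer curve (n = 349, median -0.22) lies farthest left and the curve of genes without a match (n = 7863, median 0.06) farthest right.

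Genes with 2 or more matches had lower medians than genes with 1. The median was -0.09 for 2002 genes with 1 match of at least 7 bases, -0.29 for 445 genes with 2 and -0.27 for 133 genes with 3 or more. Long 3′ UTRs hold more matches by their length alone, so the classes were also read within 3 equal groups of 3′ UTR length. Among the shortest (up to 915 bases), the median was -0.46 for genes with a match of at least 7 bases, -0.26 for 434 with a 6mer and -0.05 for 3549 with none. Among the longest (over 2411 bases), it was -0.07 for 1561 genes, 0.03 for 987 and 0.21 for 1693. Genes with long 3′ UTRs were thus higher in every class, and the difference between matched and unmatched genes was present in each of the 3. Among genes with no match in the 3′ UTR, a match in the coding sequence went with a smaller shift. The median was -0.07 for 189 genes with an 8mer there, -0.04 for 1263 with a 7mer-m8 and 0.12 for 4565 with none.

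Among genes with an 8mer, JAGN1 fell most. JAGN1, a protein of the secretory pathway that neutrophils need, had values of 693, 622 and 668 with siNT and 98.2, 105 and 114 with the mimic (log2 fold change -2.63, standard error 0.13). TRAM2, a partner of the protein channel of the endoplasmic reticulum, was far more abundant, at 43370, 43075 and 44056 with siNT and 7514, 7593 and 8468 with the mimic (log2 fold change -2.47, standard error 0.08). The 8mer genes named here were picked among those whose groups did not overlap. Both JAGN1 and TRAM2 had little spread between replicates. The other 8mer genes that fell most were SLC37A4, ARL10, TNS3, SLC2A6, SEMA4G, LBH, FAM131B and RNF150, with log2 fold changes of -2.58 to -2.07. SLC37A4 transports glucose 6-phosphate into the endoplasmic reticulum, and TNS3 links integrins to actin.
Of 9 genes described as hsa-miR-28-5p targets in other cells, all of which had a match of at least 7 bases, 6 were lower and none was higher. The share called lower was 23.5% over all genes and 34.5% to 41.5% in the classes with a match of at least 7 bases. RAP1B, a small GTPase of cell adhesion, had values of 4961, 5104 and 5559 with siNT and 2050, 2326 and 1913 with the mimic (log2 fold change -1.32, limma adjusted p = 3.0e-06). RAB23, E2F6, MAD2L1 and NFE2L2 were among the others that fell. BAG1 and N4BP1 were among the 3 that did not pass the test, with log2 fold changes of -0.50 and -0.34. AGO1, one of the Argonautes that carry microRNAs, fell from 2537, 2434 and 2374 to 899, 912 and 857 (log2 fold change -1.46). AGO3 and AGO4 rose, by 0.49 and 0.71.

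The largest rises were those of genes known to be induced by interferon. The first 15 included IFIT1, IFIT2 and IFIT3, OAS1 and OAS2, IFI6 and IFI27, MX1, ISG15, ISG20, USP18, HERC5, IFITM1 and BATF2, and besides these CEACAM1, an adhesion molecule. OAS1, which makes 2′-5′ oligoadenylates from double-stranded RNA, had values of 10.4, 3.04 and 2.93 with siNT and 483, 9352 and 5218 with the mimic (log2 fold change 8.99, standard error 0.87, limma adjusted p = 2.5e-05). MX1, a GTPase that blocks viruses, had values of 6.04, 9.12 and 13.2 and then 166, 4746 and 2318. Both genes were within a few reads of 0 with siNT, so the size of their log2 fold change depends on the pseudocount. ISG15, a ubiquitin-like modifier, had values of 110, 76.0 and 66.0 with siNT and 797, 7671 and 7350 with the mimic. IFIT1, which binds RNA with a foreign 5′ end, had values of 416, 444 and 685 and then 5557, 74143 and 45957 (log2 fold change 5.73, standard error 0.72, limma adjusted p = 1.4e-04). The 15 were picked among genes whose groups did not overlap. Replicate 1 was the lowest of the mimic libraries for each of the genes given here.

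**Figure D3:**
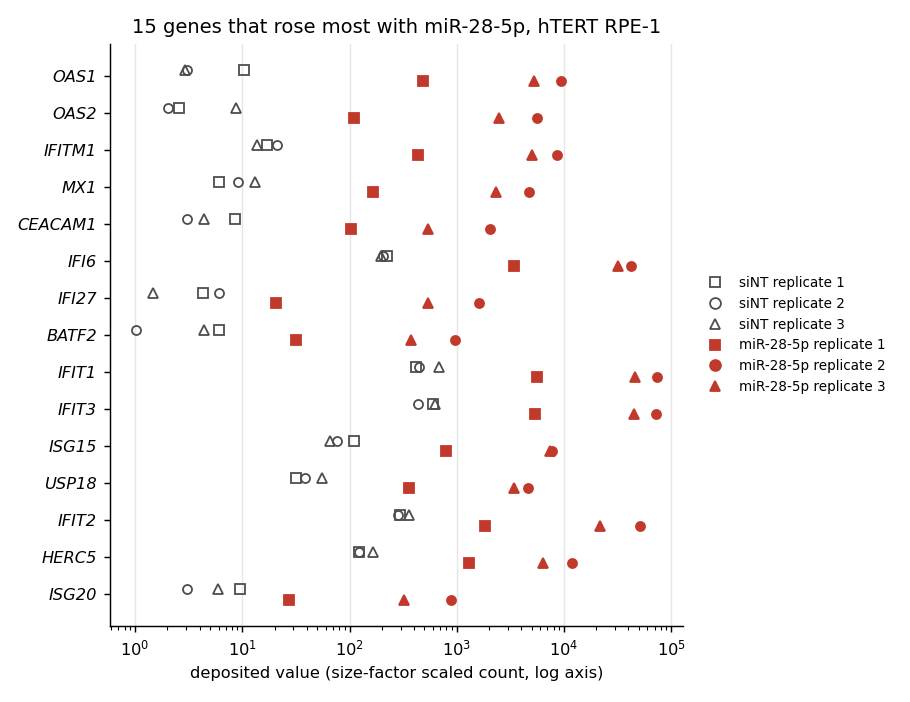
Values of the 15 genes that rose most with hsa-miR-28-5p in hTERT RPE-1, 1 point per library on a logarithmic axis, with siNT as open grey symbols and the mimic as filled red symbols. The genes were picked among those with every mimic value above every siNT value. Replicate 1 (red squares) lies between siNT and the other 2 mimic libraries, for IFIT1 at 5557 against 74143 and 45957.

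Of the 38 genes of the interferon list, 33 were tested and called higher, and 5 were not tested. The background was 23.3%, but 6 of the 33, OAS1, OAS2, MX1, IFI27, ISG20 and BST2, had a siNT library under the filter value of 10 and could pass through the mimic libraries, where they were high. The other 27, with every siNT library at 10 or more, were called higher too, with a median log2 fold change of 3.45. The median of the 33 tested was 4.50. The median difference from the siNT mean was 2.16 in replicate 1, 5.89 in replicate 2 and 5.27 in replicate 3. Replicate 1 was the nearest to siNT for 33 of the 33 genes, while it was nearest for 42.5% of all genes called higher. The same library was rich in ribosomal RNA, and the part of that in its weaker interferon response was not tested. Without it the median was 5.58, and all 33 genes were still called higher.
The sequence GAAANNGAAA, the core of the element that interferon-activated factors bind, was searched on both strands from 250 bases before to 50 after the gene start (RefSeq, GRCh38.p14). It was found in 843 of 22114 promoters (3.81%). Of the 33 list members tested, 20 had a promoter entry, and 16 of these held the sequence. Under 80% of the members could be looked up, so no share was drawn for the list. Windows of 4 of the most strongly risen genes are shown, with the element in capitals, read along the gene.
ISG15, chr1:1013383-1013406, plus strand: ggaaaggGAAACCGAAActgaagc
IFITM1, chr11:314027-314050, plus strand: cttctgaGAAACTGAAAcgacagg
IFI6, chr1:27672291-27672314, minus strand: gagagggGAAAATGAAActgcaga
IFIT1, on the opposite strand, chr10:89392500-89392523, plus strand: gctttagTTTCACTTTCccctttc
In ISG15 a second copy of the element overlaps with the one shown. Binding was not measured.

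Sensors of double-stranded RNA and the signalling from the interferon receptor rose with the effectors. Of 23 members tested, 16 were higher (69.6%) and 2 lower (8.7%), compared with 23.3% and 23.5% of all genes. IFIH1, which encodes the sensor MDA5, had values of 349, 348 and 408 with siNT and 1842, 19104 and 10322 with the mimic (log2 fold change 4.28, standard error 0.63). DDX58, which encodes RIG-I, went from 1572, 1536 and 1507 to 3839, 35156 and 22054. Both were raised in every mimic library and least in replicate 1. The kinase JAK1, which serves the receptors, fell instead (8624, 7958 and 9250, then 4687, 4420 and 4293), as did the adaptor MAVS (log2 fold change -0.36).
Of 17 genes of MHC class I presentation, 13 were higher (76.5%) and 1 lower (5.9%), with a median of 1.38. The medians of the replicates were 0.26, 2.14 and 1.66. HLA-B had values of 8623, 9254 and 6859 with siNT and 9784, 46504 and 25031 with the mimic. TAP1, a subunit of the peptide transporter, had values of 1152, 1103 and 1114 with siNT and 318, 2303 and 1393 with the mimic. Replicate 1 was thus below siNT and the other mimic libraries above it, and TAP1 was not called (limma adjusted p = 0.83). Without replicate 1 it was called higher (log2 fold change 0.67, limma adjusted p = 0.016). TAPBP, a chaperone of peptide loading, fell from 7183, 7513 and 6655 to 1879, 3704 and 2510.
Of 17 inflammatory cytokines tested, 4 were higher (23.5%) and 5 lower (29.4%), close to the 23.3% and 23.5% of all genes. CSF1, a growth factor of macrophages, rose from 1410, 1406 and 1516 to 2918, 4851 and 3802, while CCL2, which attracts monocytes, fell from 3184, 4145 and 3088 to 1240, 1603 and 868.

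The targets of p53 were mostly higher. Of 34 tested, 26 were higher (76.5%) and 1 lower (2.9%), compared with 23.3% and 23.5% of all genes. The median log2 fold change was 0.90, compared with 0.01 for all genes. MDM2, the ligase that restrains p53, had values of 4849, 4851 and 6585 with siNT and 15838, 14399 and 14779 with the mimic (log2 fold change 1.48, standard error 0.13, limma adjusted p = 1.6e-05). FAS, a death receptor, went from 2124, 1987 and 2574 to 8021, 7084 and 7393. TP53INP1 went from 3064, 3159 and 3594 to 21472, 11141 and 16371, and ACER2, an alkaline ceramidase, from 49.2, 44.6 and 80.7 to 524, 303 and 416. Every mimic library was above every siNT library for these 4 genes, and replicate 1 was the highest for each of them. The replicate medians of the list were 1.09, 0.74 and 0.99.
CDKN1A, the cell cycle inhibitor p21 and a target of p53, was not called. It had values of 5698, 6211 and 6336 with siNT and 5895, 4753 and 5701 with the mimic (log2 fold change -0.16, standard error 0.10, limma adjusted p = 0.21). Its groups overlapped. Its 3′ UTR holds 2 matches of the 7mer-m8 kind. MYC was not called either (log2 fold change -0.06, standard error 0.18, limma adjusted p = 0.79).

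Messenger RNAs of ribosomal proteins were lower almost as a whole. Of 33 small subunit proteins 32 were lower and none was higher, with a median log2 fold change of -0.82. Of 48 large subunit proteins 46 were lower and none was higher, with a median of -0.74. Of all genes tested, 23.5% were called lower. After RPS28, those that fell most were RPS25 (9473, 8929 and 9525 with siNT, 2540, 1792 and 1898 with the mimic, log2 fold change -2.18) and RPL23A (16454, 15354 and 16377, then 6086, 4309 and 4577, log2 fold change -1.70). RPS19 was not called, with values of 9575, 9189 and 8412 and then 10196, 7036 and 9472, nor was RPL36. Ribosomal protein genes have many processed copies in the genome, which can take or lend reads. With equal library totals the medians were -0.74 and -0.66. Of the small subunit proteins 1 had a seed match of at least 7 bases, and of the large subunit proteins 6.
Other messages with a 5′ terminal oligopyrimidine tract, the TOP messages, whose translation is controlled together with that of ribosomal proteins, did likewise. Of 19, 17 were lower and none higher, with a median of -0.69. EEF1A1, the elongation factor that brings tRNA to the ribosome, had values of 312465, 311092 and 321035 with siNT and 185034, 104233 and 137908 with the mimic. PABPC1, which binds polyA tails, fell from 41268, 38566 and 45377 to 23287, 15643 and 20094. Replicate 1 was the nearest to siNT for 30 of 33, 46 of 48 and 15 of 19 members of these 3 lists. It was the nearest for 38.9% of all genes called lower. Factors that assemble ribosomes differed from the ribosomal proteins. Of 40 factors of the small subunit 13 were higher (32.5%) and 4 lower (10%), with a median of 0.20. Of 37 of the large subunit 13 were higher (35.1%) and 4 lower (10.8%), with a median of 0.12. The shares over all genes were 23.3% higher and 23.5% lower. RSL24D1 fell, from 1734, 1666 and 1870 to 675, 712 and 589. Of 15 genes of RNA polymerase I, 5 were higher (33.3%) and 2 lower (13.3%). Their median of 0.01 was that of all genes. POLR1C rose most, by 1.03 on the log2 scale.

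**Figure D4:**
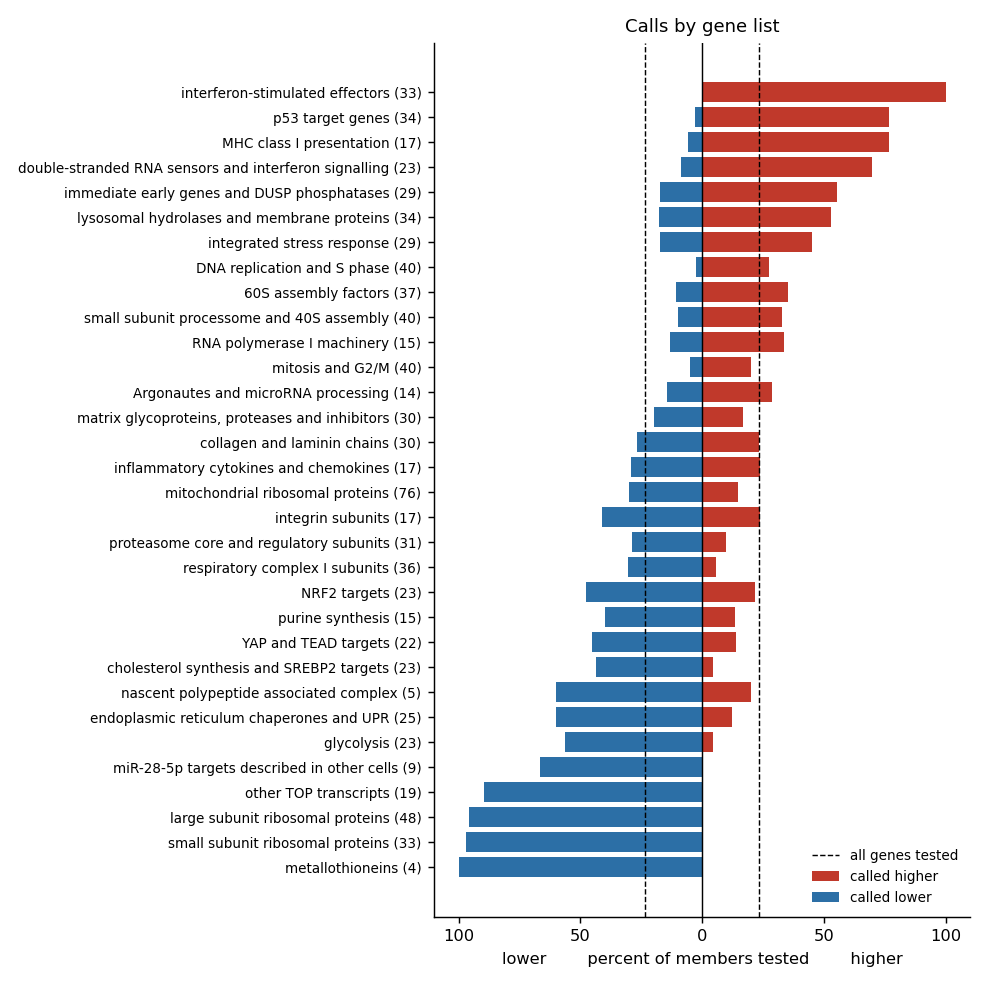
Percent of the tested members of each gene list (number in brackets) called higher (red, right) or lower (blue, left) with hsa-miR-28-5p against siNT. Dashed lines are the shares over all genes tested, 23.3% higher and 23.5% lower, and the interferon list (33 of 33 higher) lies at the top, with metallothioneins (4 of 4 lower) and the ribosomal protein lists (32 of 33 and 46 of 48 lower) at the bottom.

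Genes of the integrated stress response were more often higher (13 of 29, 44.8%) than lower (5, 17.2%). Over all genes tested, the shares were 23.3% higher and 23.5% lower. DDIT3, which encodes the stress factor CHOP, rose from 194, 162 and 200 to 550, 1234 and 870, and ATF3 from 75.1, 67.9 and 80.7 to 220, 443 and 309. Chaperones of the endoplasmic reticulum were mostly lower. Of 25 genes 15 were lower (60%) and 3 higher (12%). MANF (2807, 2981 and 2339, then 685, 853 and 683) and HYOU1 (13692, 15439 and 14196, then 5306, 6810 and 6430) were among those lower. Glycolysis had 13 lower genes (56.5%) and 1 higher (4.3%) of 23. SLC2A1, the main glucose transporter, fell from 22282, 22161 and 20914 to 4768, 6651 and 5084 (log2 fold change -2.0, standard error 0.12), while SLC2A3, a second transporter, rose by 0.83. Of 23 targets of NRF2 11 were lower (47.8%) and 5 higher (21.7%, near the 23.3% of all genes). PGD and TKT, enzymes of the pentose phosphate pathway, fell by 1.49 and 1.43 on the log2 scale, and NFE2L2, which encodes NRF2, fell by 0.71.
Metallothioneins, which bind zinc and copper and whose near-identical copies can share reads, were lower in 4 of 4 genes tested, MT2A with values of 4115, 3689 and 3491 and then 2035, 1996 and 2055. Of 23 genes of cholesterol synthesis, 10 were lower (43.5%) and 1 higher (4.3%), and SREBF2, which controls them, fell by 0.74. Of 34 lysosomal genes 18 were higher (52.9%) and 6 lower (17.6%). ASAH1, acid ceramidase, rose from 2442, 2705 and 2473 to 6495, 5739 and 5131, whereas PSAP, the precursor of the saposins, fell from 70528, 68990 and 55698 to 26386, 27292 and 24561. In the proteasome, 9 of 31 genes were lower (29%, near the 23.5% of all genes) and 3 higher, and PSMB2 (3441, 3407 and 3498, then 817, 1006 and 815) and PSMA5 fell far more than the rest. Of 15 genes of purine synthesis 6 were lower (40%), with IMPDH1 first, and 2 higher (13.3%). Of 76 mitochondrial ribosomal proteins 23 were lower (30.3%) and 11 higher, and of 36 subunits of respiratory complex I 11 (30.6%) and 2, shares not far above that background. Without hsa-miR-28-5p replicate 1, the lower stress response genes numbered 2, the higher cholesterol genes 3, the higher glycolysis genes 2, and the higher genes of the mitochondrial ribosome and complex I 6 and 1. The lower p53 targets then numbered 2 and the lower mitosis genes 1, and no other list described here changed a count by more than 1.5 times.

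Immediate early genes, which growth signals switch on, were more often higher than lower. Of 29 immediate early genes and DUSP phosphatases 16 were higher (55.2%) and 5 lower (17.2%), compared with 23.3% and 23.5% of all genes (median 0.80). DUSP6, which switches off ERK, rose from 181, 193 and 247 to 1244, 1551 and 1038, and SPRY2, another inhibitor of this pathway, from 959, 976 and 1142 to 2667, 2764 and 2418. DUSP1 and JUNB fell. Of 40 genes of DNA replication, 11 were higher (27.5%) and 1 lower (2.5%), and of 40 of mitosis 8 (20%) and 2 (5%). Most genes of both lists did not pass the test. The higher shares were near the 23.3% of all genes, and the lower shares were under the 23.5% of all genes. PCNA, the clamp of the replication fork, rose from 2053, 1533 and 1705 to 4434, 4485 and 4029, and CCNE1 fell (140, 125 and 101, then 76.3, 45.9 and 59.4).
Adhesion and matrix genes included members called in each direction. Of 17 integrin subunits 7 were lower (41.2%) and 4 higher (23.5%, near the 23.3% of all genes). ITGA5, a fibronectin receptor subunit, fell from 57518, 59458 and 48268 to 11028, 22307 and 16401, and ITGA2, a collagen receptor subunit, rose from 977, 1036 and 1579 to 7615, 11412 and 4920. Of 30 collagen and laminin chains 8 were lower (26.7%) and 7 higher (23.3%), close to the shares of all genes. COL4A3 and COL4A4, chains of basement membrane collagen, fell by 1.58 and 1.77 on the log2 scale, while LAMA3, a laminin chain, rose by 3.13. Of 30 other matrix genes 6 were lower and 5 higher (16.7%), under the shares of all genes. Of 22 targets of YAP and TEAD 10 were lower (45.5%) and 3 higher (13.6%), with F3, CRIM1 and AJUBA falling most. The keratins of simple epithelium fell together, KRT8 from 15170, 15598 and 14031 to 4533, 5129 and 5099 and KRT18 from 13237, 13155 and 11570 to 6153, 4600 and 5784. Of 8 markers of differentiated pigment epithelium tested, 2 were higher (25%), 3 lower (37.5%) and 3 not called, compared with 23.3% and 23.5% of all genes. BEST1, a chloride channel, rose from 153, 182 and 162 to 236, 249 and 206. RLBP1, which binds retinal, rose from at most 4.05, about the level of 3 reads, to 11.6–15.3. It passed the filter value of 10 only through mimic libraries, where it was high. OTX2 fell by 0.56 on the log2 scale. The regulator MITF fell from 1936, 1757 and 2031 to 1070, 1076 and 1133. PMEL was called lower too, with values of 13.8, 9.12 and 544 with siNT and 3.27, 1.87 and 1.16 with the mimic, so siNT replicate 3 sets the size of its fold. In bulk RNA, fewer cells of a kind and less RNA in each cell cannot be told apart.

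Genes outside the interferon lists that rose about as far in replicate 1 as in the others were picked after their values were seen. ESM1, a secreted proteoglycan, had values of 11.2, 17.2 and 7.34 with siNT and 196, 550 and 147 with the mimic. SLC14A1, a urea transporter, rose by 4.31 on the log2 scale. THBD, the thrombin receptor thrombomodulin, had values of 25.9 or less and then 281, 248 and 183. SULF2, which edits heparan sulphate, had values of 24.3 or less and then 309, 118 and 240. Replicate 1 was the highest mimic library for SLC14A1, THBD and SULF2.
The plot of list medians by replicate shows which groups of genes differed between the mimic libraries. The interferon list and MHC class I were weakest in replicate 1, and the ribosomal protein and TOP lists fell less there. Glycolysis fell furthest in replicate 1, with medians of -0.92, -0.20 and -0.63 in replicates 1, 2 and 3. The medians of DNA replication were 0.03, 0.56 and 0.22. The p53 targets, metallothioneins, described targets and immediate early genes were at similar levels in all 3 libraries. RPS28 was as low in replicate 1 as in the others. Over all called genes, the median difference from siNT in replicates 1, 2 and 3 was 0.62, 0.76 and 0.66 for those higher and -0.66, -0.75 and -0.65 for those lower.

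**Figure D5:**
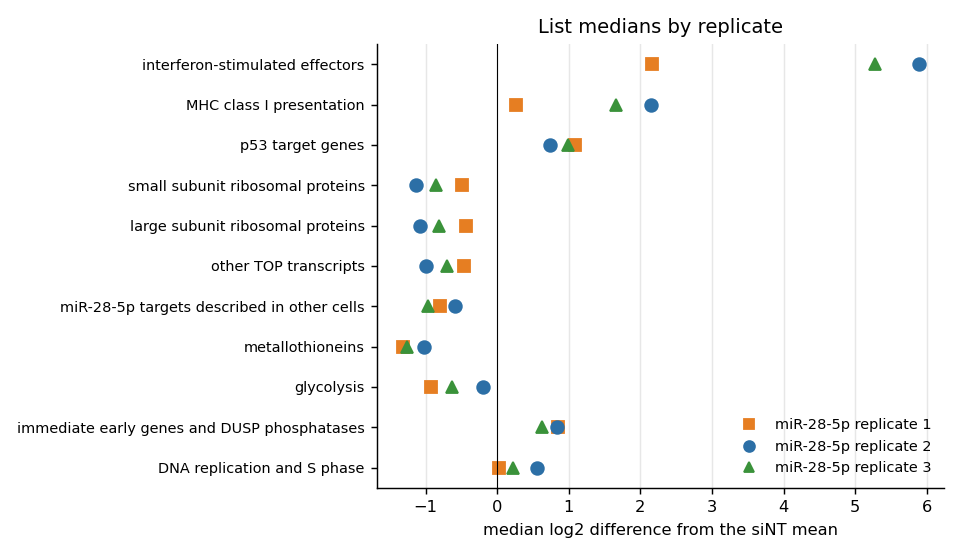
Median log2 difference from the siNT mean (horizontal axis) of 11 gene lists in each of the 3 libraries with hsa-miR-28-5p. Interferon effectors span 2.16 (replicate 1) to 5.89 (replicate 2), whereas the 3 libraries lie within 0.74 to 1.09 for p53 targets.

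Between the mimics in hTERT RPE-1, 3084 of 14527 genes (21.2%) differed. For 1435 the hsa-miR-708-5p libraries were the higher. This split depended on the scaling, since with equal totals 4650 genes differed and 3943 were higher in the hsa-miR-708-5p libraries. Leaving out 1 library lowered the count to 1512 without hsa-miR-708-5p replicate 3, 1651 without hsa-miR-28-5p replicate 3 and 1893 without hsa-miR-708-5p replicate 1. None of the 33 interferon effectors was called between the mimics, but their median difference was 1.03 toward hsa-miR-708-5p. IFI27 differed by 3.10 (standard error 1.20) and OAS2 by 2.14 (standard error 1.13), so differences of this size were not resolved. RPS28 had a difference of 0.07 (limma adjusted p = 0.82). CEMIP was lower with hsa-miR-708-5p, at 171, 176 and 146, than with hsa-miR-28-5p (difference -4.10, standard error 0.30, limma adjusted p = 7.2e-05). LRRC32, which presents latent TGF-beta, was also lower with hsa-miR-708-5p (5.49, 12.4 and 5.11, against 101, 166 and 69.9). EPDR1 was the reverse, at 245, 243 and 243 with hsa-miR-708-5p and 53.4, 32.8 and 32.6 with hsa-miR-28-5p (difference 2.63, limma adjusted p = 7.2e-05). IL1B, IL7R, ABCC9 and THBD were also higher with hsa-miR-708-5p, by 2.25 to 2.71 on the log2 scale. CDKN1A was lower with hsa-miR-708-5p by 0.77 (limma adjusted p = 0.0012). Of 40 mitosis genes 37 were higher with hsa-miR-708-5p, and of 40 replication genes 28, compared with 1435 of all 14527 genes. These counts are on the deposited scaling, and with equal totals 3943 of all genes were higher.

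More genes were called with hsa-miR-28-5p in hTERT RPE-1 than in MCF10A, where 3347 of 14726 genes were called (22.7%). The lines were fitted separately, and the number called also depends on depth and on the spread between replicates. Estimated reads on genes were 23.8–40.4 M in hTERT RPE-1 and 19.4–31.7 M in MCF10A. Of the genes tested in both lines, 1919 were called in both, which is 30.3% of the calls in hTERT RPE-1 and 62.5% of those in MCF10A, and 1712 of them had the same direction. A test of the difference between the lines called 3127 of 13339 genes (23.4%), 1614 with a higher and 1513 with a lower fold change in hTERT RPE-1. The interferon effectors differed for 31 of 33, all higher in hTERT RPE-1, and their median log2 fold change in MCF10A was 0.38. OAS1 differed by 9.68, IFITM1 by 7.48 and USP18 by 5.29. RPS28 fell further in hTERT RPE-1, by a difference of -1.68 (adjusted p = 6.5e-05, t test of the difference of the limma log2 fold changes). SEMA7A fell in hTERT RPE-1 and had a log2 fold change of -0.01 in MCF10A. KCND1, PRUNE2, VSTM2L and JAM2 fell in hTERT RPE-1 and rose in MCF10A, with differences of -4.34 to -3.72. The integrated stress response differed for 20 of 29 genes, all higher in hTERT RPE-1, and its median in MCF10A was -0.82. The p53 list, in contrast, had a median of 0.81 in MCF10A, near that in hTERT RPE-1, and 10 of its 34 genes differed.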

How the data were processed

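PolyA+ RNAseq libraries were paired-end. Per the labels and the submitters' processing notes, reads were aligned to hg38 with HISAT2 2.1.0 and quantified on RefSeq genes in Partek, and the signal values deposited by the authors are estimated counts divided by a DESeq2 size factor. The authors' files of ratios, log2 ratios and p-values were not used. Whole reads could not be recovered, so no count test was run. Depth was estimated from the steps of low values, and floors of 3 reads cover counting error only.

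A gene was tested where 3 or more of the line's 9 libraries reached a value of 10. log2(value + 1) was fitted with limma 3.58.1 (R 4.3.3) with a trend and 3 group means, with Benjamini-Hochberg adjustment and a threshold of 0.05. Log2 fold changes are on that scale and understate the change of low genes. The difference between lines combined the fits of each line. The fit was tested on simulated data. P-values measure the spread between the biological replicates of 1 line. Replicate numbers were not treated as pairs between siNT and hsa-miR-28-5p (correlation of deviations 0.02 to 0.04). Between the mimics the numbers did pair the libraries (0.13 to 0.28), and the fit without a block was kept there too, with the blocked count of 3315 calls beside 3084. Named genes were the 15 that rose and the 15 that fell most with a mean of at least 100 and groups that did not overlap, up to 4 called members of each list per direction, 10 genes with an 8mer and the 5 largest differences per direction between mimics and lines, besides RPS28, MYC, CDKN1A and marker genes. Other genes named were chosen after their values were seen. The comparison, members and lists were chosen with earlier results of these data known. Seed matches were searched in GENCODE 44 transcripts, 1 per gene with the longest 3′ UTR. Alternatives changed the pseudocount, filter, scaling, libraries, block, weights and trend. Some genes and sequences are not reported here.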

Additional observations from a re-analysis of the deposited data

Results flagged for a closer look

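The response to hsa-miR-28-5p differed between hTERT RPE-1 and MCF10A for 22 of the genes named among the largest changes. The difference of the limma log2 fold changes was divided by its combined standard error, with Benjamini-Hochberg adjustment. These genes were chosen for their change in hTERT RPE-1, which favours a larger change there. Of all genes tested in both lines 23.4% differed. OAS1, OAS2, MX1, CEACAM1, IFI27, BATF2 and ISG20 also had a siNT library under the filter value of 10. The fold change was higher in hTERT RPE-1 for OAS1 by 9.68, OAS2 by 7.53, IFITM1 by 7.48, CEACAM1 by 6.52, USP18 by 5.29, MX1 by 5.05 and ISG15 by 4.94. It was also higher for ISG20 by 4.65, BATF2 by 4.64, IFIT2 by 4.42, IFI27 by 4.25, IFIT1 by 4.04, IFIT3 by 4.02, IFI6 by 3.97 and HERC5 by 3.19.

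The difference was negative, which means a deeper fall in hTERT RPE-1, for SEMA7A (-3.89), CEMIP (-3.38), CNTNAP1 (-2.51), MFSD10 (-1.88), IMPDH1 (-1.85), RPS28 (-1.68) and WSB2 (-1.26).

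Small nuclear and nucleolar RNAs summed to 22417 in hsa-miR-28-5p replicate 1 and to 399–614 in the other libraries of the line. They were not taken out before the fits or the scaling to equal totals. What set that library apart was not tested.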

How the results depend on the processing

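Between hsa-miR-28-5p and siNT, 5471–6596 genes were called when each library was left out in turn, and requiring a 2-fold change as well left 1976. With the replicate block 6997 genes were called, which is within 1.5 times of 6798, and each hsa-miR-28-5p library correlated best with the siNT library of its own number. With equal totals 3959 called genes were higher and 2711 lower, and with equal totals without ribosomal RNA 4389 and 2557. Between the mimics 4650 genes were called with equal totals and 3315 with the replicate block. Leaving out 1 library gave 1512–4084, with 1651 without hsa-miR-28-5p replicate 3, 1893 without hsa-miR-708-5p replicate 1 and 1512 without its replicate 3. The difference between the lines had 3757 calls with the replicate block and 2287–3456 with a library left out.

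The medians of the seed classes moved with the scaling. With equal totals they were -0.13 (8mer), -0.060 (7mer-m8), -0.0078 (7mer-A1), 0.0048 (6mer) and 0.15 (no match). With equal totals without ribosomal RNA they were -0.098, -0.028, 0.025, 0.038 and 0.18, and the order of the classes stayed. With equal upper quartiles they were -0.12 for the 7mer-m8, -0.056 for 6mers and 0.089 for no match. The 7mer-m8 median was -0.14 with a pseudocount of 10, -0.15 with a filter of 100, -0.15 with only the 6 libraries fitted, -0.14 with library weights and -0.15 to -0.13 with a library left out. The median without a match was 0.054 with the filter of 100 and 0.057–0.070 with a library left out. With the transcript of the longest coding sequence, the medians were -0.27 for 8mers and -0.17 for the 7mer-m8.

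Of 5960 values of 285 named genes under the alternatives, 170 lost their call, 2 gained one and 1 reversed, which was RNA45SN3, a ribosomal RNA gene at -0.63 without hsa-miR-28-5p replicate 1 and at -0.63 to 0.77 over the libraries left out. Of 798 list medians, 70 moved by more than the spread between replicates. The causes were not tested. Changes of genes at a few reads with siNT are limited by depth.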
